A study of Mus musculus with 4 samples.

Results

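Abca1, Ugcg, Gba2, Nsmaf, Slc44a1, Hsdl2, Decr1 and Amacr are genes of sphingolipid, cholesterol, choline and fatty acid handling. They were chosen by symbol, with earlier results of these data known. Each had exactly 1 row in the count tables, so they make up 8 of 56748 gene rows. All 8 had enough reads to be tested. Their levels were measured by RNA sequencing in lymph nodes of mice with experimental autoimmune encephalomyelitis, or EAE, a model of multiple sclerosis in which the immune system attacks brain and spinal cord. Of 4 EAE mice, 2 were treated with BrQ (2-bromo-1,4-naphthalenedione, a naphthoquinone carrying bromine) and 2 were vehicle controls. Each mouse gave 1 library, named by its group and the number in its label (BrQ replicates 1 and 3, Vehicle replicates 1 and 3). No source used here gives the mouse strain, age and sex, the way EAE was induced, the dose, route and time of BrQ or the make-up of the vehicle. No untreated or healthy mouse was analysed here, so every difference below is between BrQ and vehicle within EAE.

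Glucosylceramide, the parent of most complex glycosphingolipids, is made from ceramide by the Golgi enzyme that Ugcg encodes. It is broken down outside lysosomes by the non-lysosomal glucosylceramidase that Gba2 encodes. ABCA1, the cholesterol and phospholipid exporter, loads lipid onto apolipoprotein A-I and is well known from macrophages, where sterol-sensing nuclear receptors induce its gene. Fatty acids with unusual bonds or branches need helper enzymes before beta-oxidation: DECR1 reduces intermediates of unsaturated fatty acids in mitochondria, and AMACR turns branched-chain acyl-CoA esters into the mirror form that the pathway accepts.

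Most gene names in these tables appear to be displaced from the reads they should hold, so the surroundings of each gene were examined first. The genes lie on chromosome 4 between 3 and 63 Mb and, for Amacr, on chromosome 15 between 8 and 39 Mb of GRCm38 (mm10). In these stretches 247 of 401 named protein-coding genes (61.6%) averaged at least 50 reads per library, against 25.0% of 17698 on the rest of chromosomes 1 to 19 and X. Within 1 Mb of the starts of the 8 genes the share ran from 38.5% (5 of 13, Amacr) to 66.7% (8 of 12 for Hsdl2 and 4 of 6 for Decr1). The neighbours of Amacr and Slc44a1 had low medians, of 1.25 and 16.5 reads, and those of the other 6 genes had medians from 81 to 445.8 reads. Amacr thus had the lowest share. Even where many neighbours have reads, this does not show for any single gene that its row holds its own transcript.

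The libraries held 6813832 to 7989226 reads in gene rows. Mitochondrial reads made up 15.8% and 12.1% of these in BrQ and 20.6% and 30.3% in Vehicle. Levels are given as CPM, reads of a gene scaled to a fixed library total, after TMM scaling. TMM trims extreme features and aligns the libraries on the rest. Tests used edgeR's quasi-likelihood method over all 10223 features with enough reads, with Benjamini-Hochberg adjusted p-values and a threshold of 0.05. A very large part of all features passed: 45.7% in either direction, 23.6% as higher and 22.2% as lower in BrQ. Against this background 2 of the 8 genes passed, Abca1 as higher and Gba2 as lower in BrQ. The other 6 did not pass. Among the 282 tested protein-coding features of the same stretches, 45.0% passed. The median log2 fold change was 0.13 over the 8 genes and 0.05 over all features.

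RefSeq promoters (GRCm38.p6) were matched for 5 of the 8 genes, and in 3 of them the 250 bases before the start hold no annotated exon: Abca1, which passed, and its chromosome 4 companions Slc44a1 and Hsdl2, which did not. These promoter stretches are shown to set Abca1 beside Slc44a1 and Hsdl2. The windows of Gba2, which also passed, and of Ugcg overlap annotated exons and are not printed. The stretches shown are written 5′ to 3′ on the strand of the gene, and capitals mark matches to the motifs searched. Abca1 lies at chr4:53159896-53160145 (minus strand), Slc44a1 at chr4:53440163-53440412 (plus strand) and Hsdl2 at chr4:59581313-59581562 (plus strand).
Abca1: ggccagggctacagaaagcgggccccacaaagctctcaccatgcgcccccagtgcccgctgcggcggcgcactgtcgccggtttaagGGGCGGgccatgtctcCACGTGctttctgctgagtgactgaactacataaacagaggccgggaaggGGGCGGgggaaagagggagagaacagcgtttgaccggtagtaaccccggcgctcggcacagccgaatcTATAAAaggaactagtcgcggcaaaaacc
Slc44a1: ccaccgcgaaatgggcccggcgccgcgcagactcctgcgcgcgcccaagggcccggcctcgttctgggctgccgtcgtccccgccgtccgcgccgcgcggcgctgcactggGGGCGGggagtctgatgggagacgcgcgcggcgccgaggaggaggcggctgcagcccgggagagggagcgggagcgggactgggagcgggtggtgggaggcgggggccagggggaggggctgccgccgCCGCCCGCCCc
Hsdl2: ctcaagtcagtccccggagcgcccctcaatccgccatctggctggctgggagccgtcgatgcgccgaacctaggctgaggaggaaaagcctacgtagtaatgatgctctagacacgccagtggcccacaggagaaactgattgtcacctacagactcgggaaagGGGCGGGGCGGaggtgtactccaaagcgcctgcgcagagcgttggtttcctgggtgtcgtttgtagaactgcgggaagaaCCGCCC

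Motifs were searched on both strands: the TATA box (TATAAA), the E-box (CACGTG), the GC box (GGGCGG), an ETS site (CCGGAAG), the core hexamer of nuclear receptor sites (AGGTCA), a direct repeat of that hexamer with 4 bases between, a sterol element (TCACNCCAC) and the cAMP element (TGACGTCA). Abca1 held a TATA box that begins 29 bases before the start, an E-box at 147 bases and GC boxes at 97 and 163 bases. Among 27025 promoters of the same length, 13.0% held the TATA box, 6.05% the E-box and 32.9% the GC box. Slc44a1 and Hsdl2 held only GC boxes, 3 each, and in each stretch 2 of the 3 overlap. None of the 3 stretches held the other motifs searched, which says only that those letters are not in these windows. The exact direct repeat was found in only 3 of 27025 promoters, and repeats with changed letters were not searched. Its absence therefore does not show that a receptor site is missing. GC content was 61.6% for Abca1, 81.2% for Slc44a1 and 60.4% for Hsdl2, against a median of 52.0% over all promoters. The windows of Gba2 and Ugcg, not printed, were searched too. Gba2, which passed as lower, held a GC box at 139 bases and ETS sites at 39 and 16 bases. An ETS site was found in 7.05% of promoters. Ugcg, which did not pass, held GC boxes at 66 and 42 bases. Neither window held a TATA box or an E-box, so these do not mark the genes that passed.

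Abca1 (ENSMUSG00000015243, chr4:53030787-53159895, minus strand, 50 exon blocks) was higher in BrQ. Its level was 233.7 and 314.6 CPM in BrQ replicates 1 and 3, and 167.2 and 172.6 CPM in Vehicle replicates 1 and 3. The groups did not overlap, and the BrQ mice stood further apart (274.1 ± 57.2, SD, n = 2) than the Vehicle mice (169.9 ± 3.83, SD, n = 2). The transcript was 1.61-fold higher in BrQ, a log2 fold change of 0.69 ± 0.17 (SE, edgeR adjusted p = 0.00809). The call rests on BrQ replicate 3: without that library the log2 fold change was 0.47 and did not pass (edgeR adjusted p = 0.121). It was also lost with no filter on low counts (0.72, edgeR adjusted p = 0.0607). With library size as the only scaling the log2 fold change was 1.06. No exonic base of Abca1 is shared with another gene.

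**Figure D1:**
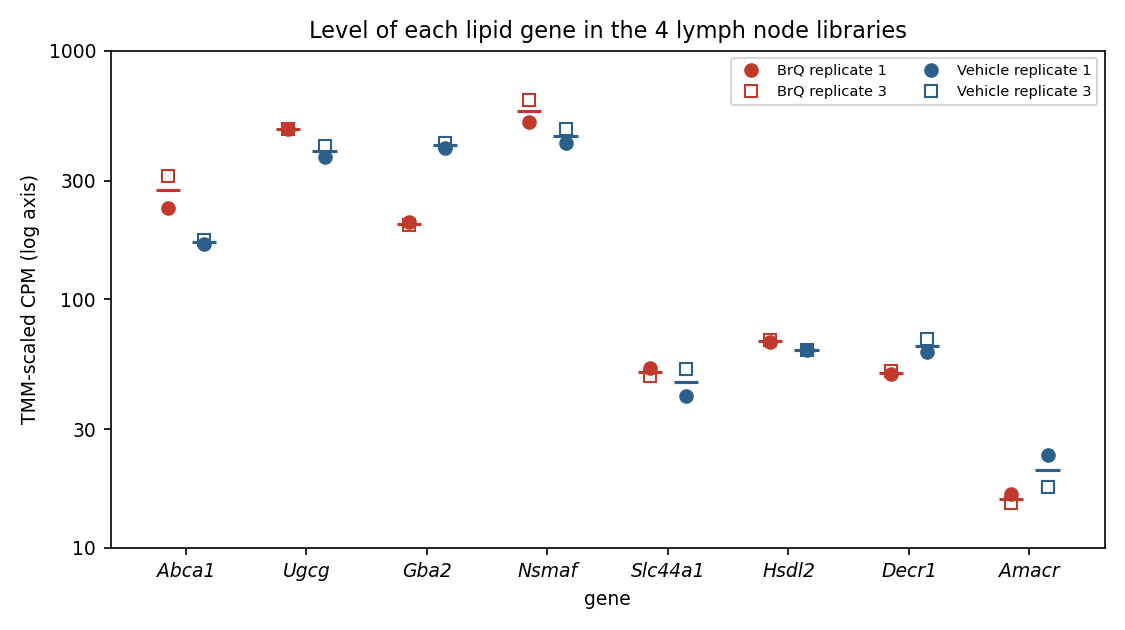
TMM-scaled CPM (log axis) of the 8 genes, with each point 1 library (1 mouse) and each bar the mean of a group of 2. Gba2 sits at 199.0 to 203.9 CPM in the BrQ libraries and at 404.8 to 427.1 in the Vehicle libraries, Abca1 sits higher in both BrQ libraries, and the groups overlap only for Slc44a1.

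Ugcg and Gba2 catalyse opposite steps at glucosylceramide, and their values lay on opposite sides. Gba2 (ENSMUSG00000028467, chr4:43566928-43578873, minus strand, 12 exon blocks) stood at 203.9 and 199.0 CPM in BrQ and at 404.8 and 427.1 CPM in Vehicle, replicates 1 and 3 in that order. Both BrQ mice were far below both Vehicle mice, and the mice within a group differed little (201.4 ± 3.47 against 415.9 ± 15.8 CPM, SD, n = 2 each). Gba2 was 2.06-fold lower in BrQ, with a log2 fold change of -1.05 ± 0.13 (SE, edgeR adjusted p = 0.000339), and it passed under each of the 17 alternatives tried. Part of it, 6.52% of its exonic bases, is shared with Rgp1 and Creb3 on the opposite strand, so those reads are uncertain where strand was not used.

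Ugcg (ENSMUSG00000028381, chr4:59189257-59222833, plus strand, 9 exon blocks) stood at 485.4 and 485.7 CPM in BrQ and at 372.7 and 414.0 CPM in Vehicle. The BrQ mice were nearly equal and both lay above the Vehicle mice. The difference did not pass, at a log2 fold change of 0.30 ± 0.13 (SE, edgeR adjusted p = 0.0809). Under 6 of the 17 alternatives it did pass, among them library size alone (0.68, edgeR adjusted p = 0.00244). Another was a fit on the same parts of chromosomes 4 and 15 alone (0.40, edgeR adjusted p = 0.0113, over those features only).

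The ratio of Ugcg to Gba2 reads within a library needs no scaling between libraries. It was 2.38 and 2.44 in BrQ and 0.921 and 0.969 in Vehicle. The mean log2 ratio was 1.27 ± 0.025 for the BrQ mice and -0.082 ± 0.053 for the Vehicle mice (SD, n = 2 each), 1.35 apart. Leaving out 1 library at a time gave 1.31 to 1.39. A two-sided exact permutation test gave p = 0.33, the smallest that 2 mice against 2 allow. How the difference divides between the genes depends on the scaling: the log2 fold changes were 0.30 for Ugcg and -1.05 for Gba2 with TMM, and 0.68 and -0.67 with library size alone.

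Many features around Gba2 were lower too. Within 1 Mb of its start 33 other protein-coding features were tested, of which 19 (57.6%) were lower and 4 higher in BrQ, with a median log2 fold change of -0.56. Over all 282 tested protein-coding features of the same parts, 25.9% were lower and 19.1% higher, with a median of -0.18. The other 7 genes had only 3 to 11 tested neighbours each. Of these, 2 of 6 were lower around Amacr (33.3%), 1 of 4 around Decr1 (25.0%) and 0 around the other 5. Around Abca1 3 of 6 were higher, with a median log2 fold change of 0.35, so its neighbours leaned its way too. Higher calls were also made for 3 of 5 around Slc44a1, 2 of 3 around Nsmaf and 2 of 4 around Decr1. They numbered 3 of 11 around Ugcg, 2 of 10 around Hsdl2 and 1 of 6 around Amacr.

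**Figure D2:**
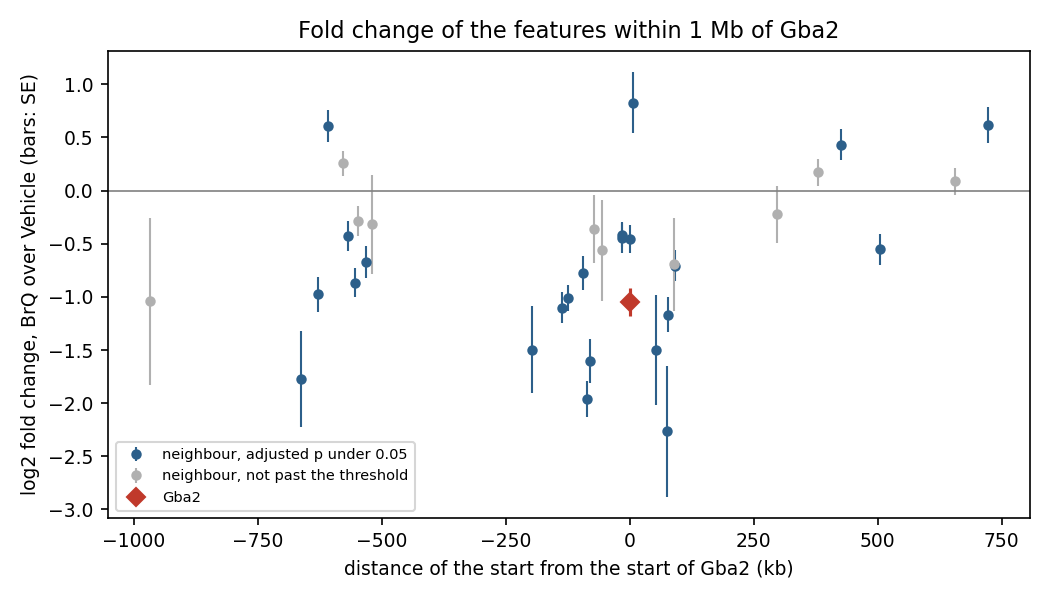
Log2 fold change (BrQ over Vehicle, bars SE) of each tested protein-coding feature against the distance of its start from that of Gba2, in kb. Most features on both sides of Gba2 lie below 0, and 19 of 33 passed as lower.

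The longest Gba2 transcript also had the highest GC content of the 8, at 56.5%. The others ran from 41.7% (Slc44a1) to 48.8% (Amacr). Over the 282 features the log2 fold change fell with GC content (Spearman rho -0.25 across genes that share the same 4 libraries, a description). In the fifth of features richest in GC, from 53.4% to 74.7%, 49.1% were lower in BrQ and the median was -0.44. In the fifth poorest in GC, from 34.7% to 42.6%, 15.8% were lower and the median was 0.18. When a smooth trend on GC was removed from each library within these parts, a setting chosen after seeing the data, the log2 fold change of Gba2 went to -0.51 ± 0.11 (SE, edgeR adjusted p = 9.01e-05). It remained past the threshold at this smaller size. That of Abca1 was 0.78 ± 0.12 (SE, edgeR adjusted p = 5.77e-08). The fit on the same parts without a GC trend gave -0.95 for Gba2 (edgeR adjusted p = 0.000824). For Abca1 that fit gave 0.79 (edgeR adjusted p = 0.0107). The trend was drawn from the same 4 libraries, and the p-values of the GC fit do not count that step. From the main fit to the GC fit, the difference between Ugcg and Gba2 went from 1.35 to 0.82 on the log2 scale. That between Nsmaf and Gba2 went from 1.39 to 0.88. The neighbours of Gba2 had a median GC content of 54.5%, against 46.8% over the 282 features, so GC content and position move together here, and neither's part in the fall of Gba2 was tested.

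**Figure D3:**
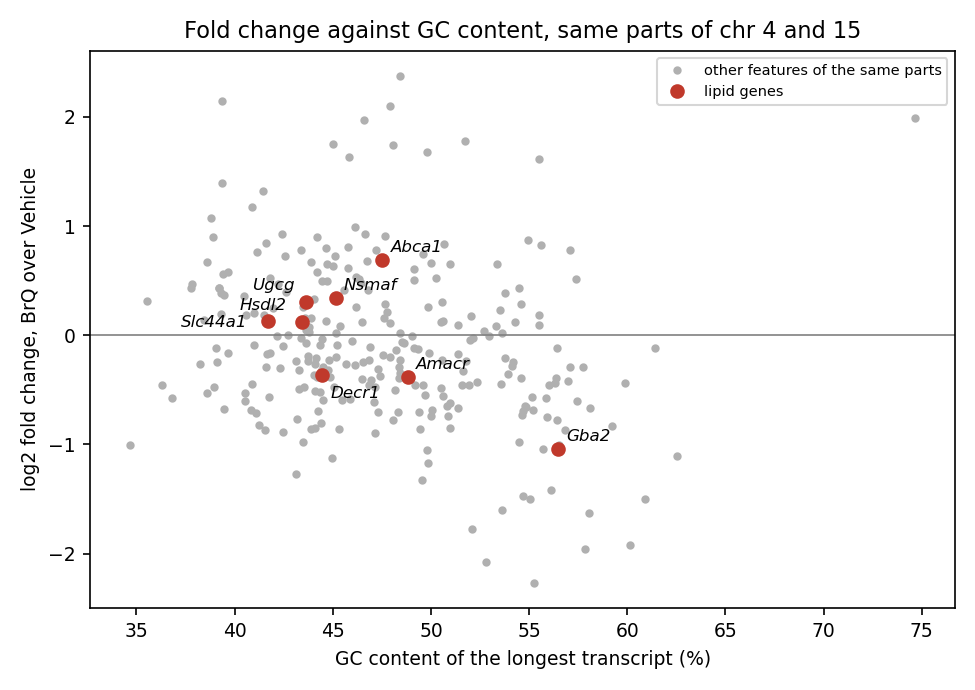
Log2 fold change (BrQ over Vehicle) against the GC content (%) of the longest transcript, for 282 protein-coding features of the same parts of chromosomes 4 and 15, with the 8 lipid genes in red. Gba2, at 56.5% GC, sits among features that mostly lie below 0, while the other 7 sit at 41.7% to 48.8%.

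Nsmaf encodes FAN, an adaptor that links the tumour necrosis factor receptor to the neutral sphingomyelinase that releases ceramide. Nsmaf (ENSMUSG00000028245, chr4:6396207-6454271, minus strand, 31 exon blocks) had the highest CPM of the 8 genes, at 517.9 and 631.7 in BrQ and 423.8 and 484.8 in Vehicle. Both BrQ mice lay above both Vehicle mice, but by little for BrQ replicate 1. The difference did not pass, at a log2 fold change of 0.34 ± 0.15 (SE, edgeR adjusted p = 0.0828). It passed under 5 of 17 alternatives, with 0.72 for library size alone (edgeR adjusted p = 0.00201), and without BrQ replicate 3 it was 0.20 (edgeR adjusted p = 0.478). Sdcbp, on the opposite strand, shares 0.932% of its exonic bases.

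Slc44a1, a choline transporter that supplies phosphatidylcholine synthesis, was the only gene of the 8 whose groups overlapped. Slc44a1 (ENSMUSG00000028412, chr4:53440413-53622478, plus strand) stood at 52.8 and 49.0 CPM in BrQ and at 40.7 and 52.3 CPM in Vehicle. The lone low library was Vehicle replicate 1. The log2 fold change was 0.13 ± 0.19 (SE, edgeR adjusted p = 0.591), and without Vehicle replicate 1 its sign turned (-0.063). Of its exonic bases, 4.46% are shared with a gene on the opposite strand. Abca1 is a near neighbour on the other strand. The ratio of Abca1 to Slc44a1 reads was 4.43 and 6.42 in BrQ and 4.11 and 3.30 in Vehicle (exact permutation p = 0.33). BrQ replicate 1 was close to Vehicle replicate 1 in that ratio.

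The genes of fatty acid oxidation and its relatives did not pass. Decr1 (ENSMUSG00000028223, chr4:15917240-15945507, minus strand) stood at 50.1 and 51.2 CPM in BrQ and at 61.3 and 68.9 CPM in Vehicle. Both BrQ mice lay below both Vehicle mice, yet the log2 fold change of -0.36 ± 0.17 did not pass (SE, edgeR adjusted p = 0.102). Its direction depends on the scaling: with library size alone it was 0.015 (edgeR adjusted p = 0.960).

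Hsdl2 encodes a member of the short-chain dehydrogenase family, to which DECR1 also belongs. Hsdl2 (ENSMUSG00000028383, chr4:59581563-59618689, plus strand) varied least among mice, with 67.5 and 68.6 CPM in BrQ and 62.5 and 62.8 CPM in Vehicle. The groups did not overlap, but the gap was small against the spread that edgeR assigns to such a gene, and the log2 fold change of 0.12 ± 0.16 did not pass (SE, edgeR adjusted p = 0.560). It passed under library size alone (0.49, edgeR adjusted p = 0.0490). The ratio of Decr1 to Hsdl2 reads, free of scaling, was 0.743 and 0.746 in BrQ and 0.981 and 1.10 in Vehicle. This is -0.42 ± 0.0038 against 0.054 ± 0.11 on the log2 scale (SD, n = 2 each). The means differed by -0.48, and the exact permutation test gave p = 0.33.

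Amacr (ENSMUSG00000022244, chr15:10981756-10996626, plus strand) had the fewest reads, 114 to 162 per library. It stood at 16.4 and 15.1 CPM in BrQ and at 23.5 and 17.5 CPM in Vehicle. Vehicle replicate 3 was close to the BrQ mice, and only Vehicle replicate 1 stood well above them. The log2 fold change of -0.38 ± 0.25 did not pass (SE, edgeR adjusted p = 0.224) and was -0.021 with library size alone. The ratio of Decr1 to Amacr was 3.05 and 3.39 in BrQ and 2.60 and 3.94 in Vehicle, so the groups overlapped.

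**Figure D4:**
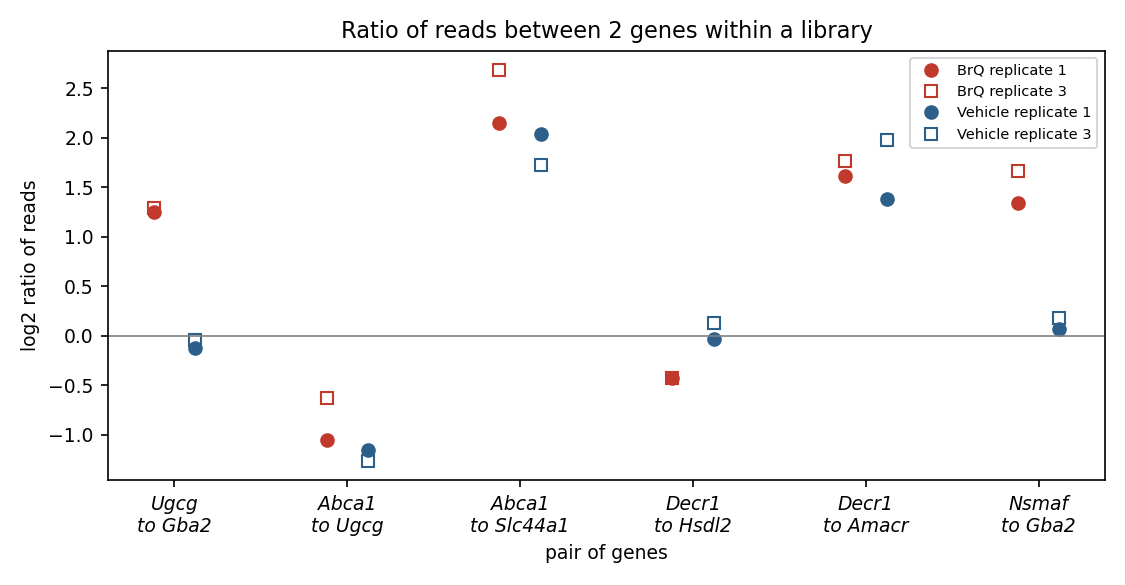
Log2 ratio of reads between pairs of genes within each library, with each point 1 mouse. The BrQ libraries lie clear of the Vehicle libraries for Ugcg to Gba2 (1.27 against -0.082 on average) and for Nsmaf to Gba2, and the groups overlap for Decr1 to Amacr.

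Across all 28 pairs of the 8 genes, the ratio did not overlap between the groups in 23 (82.1%). Such separation is common with 2 mice per group: it held for 73.4% of all pairs of tested protein-coding features of the same parts. Abca1 was higher in both BrQ mice relative to each of the other 7 genes, and Gba2 was lower relative to each of the other 7. In CPM, 4 genes lay wholly above and 3 wholly below Vehicle, where 39.9% and 36.2% of all features did so. That makes 7 of 8 against 76.1% of all features, so the 8 genes are near the background by either measure.

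Per kilobase of exon, Ugcg, Nsmaf and Gba2 were the most abundant of the 8 genes in every library. In Vehicle Gba2 came first at 92.8 ± 3.52 CPM per kb, followed by Ugcg at 75.5 ± 5.61 and Nsmaf at 54.3 ± 5.15 (SD, n = 2 each). In BrQ Ugcg came first at 93.2 ± 0.035, followed by Nsmaf at 68.7 ± 9.62 and Gba2 at 44.9 ± 0.77 CPM per kb. Abca1 stood at 26.5 ± 5.52 in BrQ and 16.4 ± 0.37 in Vehicle, and Hsdl2 at 24.3 ± 0.30 and 22.4 ± 0.073. Abca1 and Hsdl2 changed places between the BrQ mice and so are not separated in BrQ, nor are Abca1 and Decr1 in Vehicle, where Decr1 was at 16.8 ± 1.38. Slc44a1 and Amacr were lowest and changed places between the Vehicle mice, with 5.79 to 9.03 CPM per kb over both genes and all libraries.

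The calls of Ugcg and Nsmaf changed with the scaling, among other settings, and that of Hsdl2 changed only under library size alone. Slc44a1, Decr1 and Amacr passed under none of the 17 alternatives. Library size alone raised the median log2 fold change of all features by 0.37 relative to TMM, and library size from all read rows, reads in no gene included, raised it by 0.21. With library size alone 77.1% of the features called were higher in BrQ, against 51.5% with TMM. Under that scaling 4 of the 8 genes were called higher (Abca1, Ugcg, Nsmaf and Hsdl2), where 35.2% of all features were. With all read rows 3 of the 8 were called higher, where 30.2% of all features were. Gba2 was the only 1 called lower under each scaling. Of the 8 genes, Abca1 had the highest and Gba2 the lowest log2 fold change under each of the 5 scalings plotted.

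**Figure D5:**
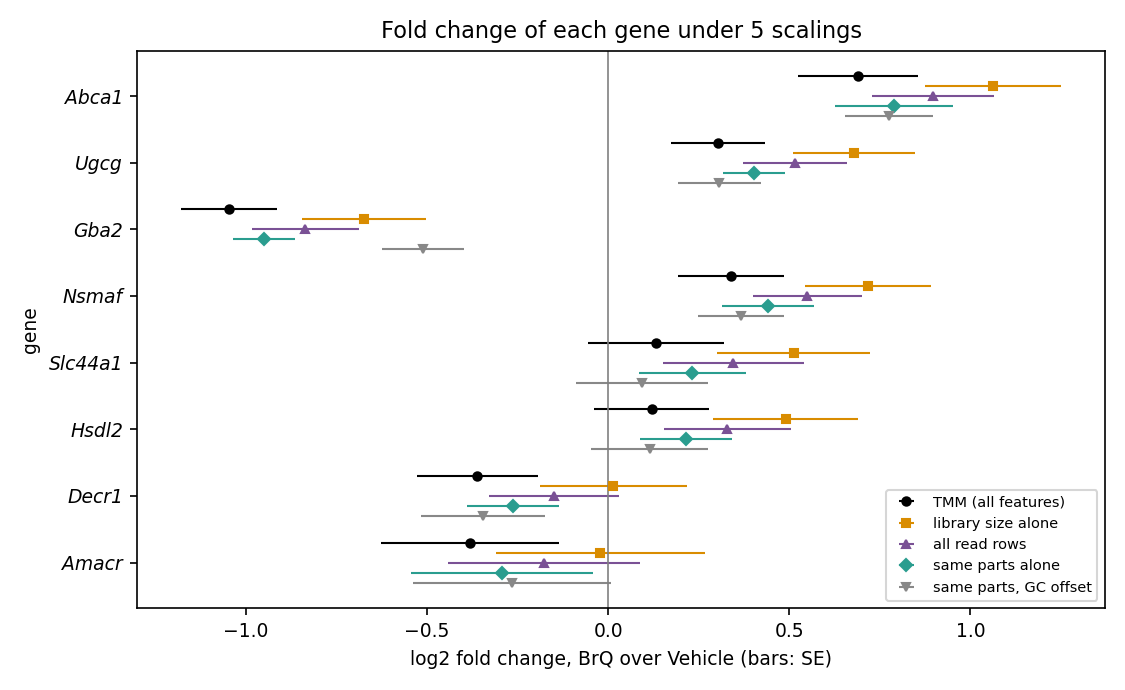
Log2 fold change (BrQ over Vehicle, bars SE) of the 8 genes under 5 scalings. The values of each gene shift together to the right with library size alone, Decr1 crosses 0, and Gba2 lies between -1.05 and -0.51.

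A list of 19 further genes of lipid handling in the same parts, chosen by symbol with earlier results of these data known, served as a wider view. Of these, 12 had too few reads to be tested. They include Cyp7a1 and Baat, liver genes of bile acid synthesis and conjugation, and also Acnat1 and Acnat2, each at 0 or 1 read per library. Of the 7 tested, 3 were higher (Lpar1, Nipsnap3b and Stra6l), 2 were lower (Pigo and Pip4p2) and Coq3 and Ptgr1 did not pass, with a median log2 fold change of -0.074. Over all features tested, 23.6% were higher and 22.2% lower, and the 7 are only the genes of the list with enough reads. Pigo, which encodes an enzyme of glycosylphosphatidylinositol anchor synthesis, fell from 288.7 and 321.3 CPM in Vehicle to 169.8 and 164.8 in BrQ, by 0.87 on the log2 scale (SE 0.14, edgeR adjusted p = 0.00105), and it is among the lower neighbours of Gba2. Nipsnap3b is in turn among the higher neighbours of Abca1. Lpar1, a receptor for lysophosphatidic acid, rose from 6.68 and 5.98 CPM to 13.4 and 11.9, by 0.99 on the log2 scale (SE 0.30, edgeR adjusted p = 0.0214). Without BrQ replicate 3, 0 of 8 tested were higher and 1 was lower. The other enzymes of sphingolipid and cholesterol synthesis lie outside these parts, and their rows are not used here.

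Lymph node cells were checked by markers in the same parts. The B cell markers Pax5 and Cd72 summed to 2075 and 2126 CPM in BrQ and 3254 and 3391 CPM in Vehicle, and 1 of 2 was lower (Cd72). Most of that gap came from Cd72, at 1041 and 1026 CPM in BrQ and 2017 and 2136 CPM in Vehicle. Pax5 stood at 1034 and 1100 CPM in BrQ and 1237 and 1255 CPM in Vehicle. Its log2 fold change of -0.22 did not pass (edgeR adjusted p = 0.155). The T cell markers Il7r and Sit1 summed to 598.6 and 683.4 CPM against 958.3 and 1024 CPM, and both were lower. The fibroblast and muscle wall markers (Reck, Tpm2, Svep1 and Npr2) summed to 17.3 and 17.3 CPM against 26.3 and 26.1 CPM, with 1 of 3 tested lower. Of the stromal chemokines, Ccl21a had 0 reads in all libraries and Ccl19 0 to 27. Aqp7, the glycerol channel of fat cells, had 2 to 19 reads, below the level needed for a test. Cd72, Sit1, Reck, Tpm2 and Npr2 lie within 1 Mb of Gba2, while Il7r, which supplies most of the T cell sum, lies on chromosome 15. Over all features tested 22.2% were lower in BrQ, and 25.9% of the protein-coding ones in the same parts. The markers were compared with TMM scaling alone. Library size alone raised the median log2 fold change of all features by 0.37 relative to TMM. In whole lymph node RNA, fewer cells of a type and less RNA per cell cannot be told apart. The part of cell composition in the differences of the 8 genes was not tested.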

How the data were processed

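Total RNA from lymph nodes of 4 mice was read as paired-end libraries, per the labels' protocols. Trim Galore 0.6.2, HISAT2 2.1.0, HTSeq 0.11.2 and the mm10 build are named in the submitters' processing notes; no source used here gives the annotation release or the strand setting. The deposited values are unnormalized counts of reads for 56748 gene IDs in a table per mouse, which ends in 5 rows without a gene. These rows held 87.0% to 89.0% of all reads and stayed out of library sizes and tests. Groups and replicate numbers come from the sample titles. With 2 mice per group, edgeR's p-values rest on a gene's spread between these mice combined with a spread shared across all features tested. Both come from these mice alone.

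Tests used edgeR 4.0.16 in R 4.3.3 (quasi-likelihood, filterByExpr, TMM, group as the only term, all 4 libraries). The SE is the log2 fold change divided by the square root of its F statistic. Alternatives were other scalings and filters, the legacy fit, DESeq2 1.42.0, limma voom 3.58.1, the replicate number as a block and each library left out. Added after seeing the data were a crossed block, no mitochondrial features and a GC offset. Positions, exon lengths and transcript GC come from GENCODE M21, and promoters from RefSeq. The named genes are the 8 members and genes of the fixed lists, of which 1 lipid gene is not reported here. Members and lists were chosen with earlier results of these data known. On simulated counts of BrQ vs Vehicle (9859 features tested), edgeR made 142 calls, 6 of them false, and found 52 of 95 features with a 2-fold and 84 of 99 with a 4-fold change. In the real data 45.7% of features were called, far more than were changed in the simulation. Its false calls therefore do not give the error rate of the real calls. Figures used matplotlib 3.10.9.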

Additional observations from a re-analysis of the deposited data

How the results depend on the processing

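Of the 136 fold changes of the 8 genes under the alternatives, 120 were on the same side of the threshold with the same sign, 12 passed only under the alternative, 2 no longer passed (both Abca1) and 2 turned sign. The sign turns were Decr1 with library size alone (0.015) and Slc44a1 without Vehicle replicate 1 (-0.063), neither past the threshold. Called higher were 4 genes with library size alone (35.2% of all features tested under that setting), 3 each with library size from all read rows (30.2%), the fit on the same parts alone (25.4%), that fit with a GC offset (28.7%) and a mean of at least 10 CPM (29.9%), 2 with the crossed block (26.6%) and 0 with no low count filter (6.21%); leaving out 1 library gave 0 to 1. Gba2 was called lower each time. Of the further lipid genes, 1 was higher and 1 lower with no low count filter, and 1 was lower with library size alone; leaving out 1 library gave 0 to 2 higher and 1 to 3 lower. Over all features, 4676 passed, against 2481 with no low count filter, and 139 of 283 and 140 of 282 on the same parts alone without and with the GC offset. Leaving out 1 library gave 2031 to 4376. The cause of these shifts was not tested, beyond fewer features in the fits on the parts.

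The ratio differences kept their sign with each library left out, except Decr1 to Amacr (-0.29 to 0.31). They ran from 1.31 to 1.39 for Ugcg to Gba2, 1.22 to 1.54 for Nsmaf to Gba2, 0.15 to 0.58 for Abca1 to Ugcg, 0.27 to 0.80 for Abca1 to Slc44a1 and -0.56 to -0.40 for Decr1 to Hsdl2.

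With the replicate number as a block, 4190 features passed; Abca1 was at 0.67 (edgeR adjusted p = 0.00958), Gba2 at -1.05 (edgeR adjusted p = 0.000248), and no call of the 8 genes changed. Deviations of same-numbered libraries correlated at -0.12 over 10223 features. These 4 libraries allow only 1 such contrast, which cannot decide whether the numbers are pairs. The numbers were not taken as pairs because no pairing is stated. A crossed block gave 5284 calls. A library left out leaves its group with 1 mouse, whose spread is assumed to be that of the other group. Amacr, at 114 to 162 reads, is the gene that depth limits most.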
